A study of Mus musculus with 8 samples.

Results

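The genes followed here make, carry or display peptides for MHC class I: the peptide transporter subunits Tap1 and Tap2, the loading factor Tapbp (tapasin), the class I light chain B2m and heavy chains H2-K1 and H2-D1, the immunoproteasome subunits Psmb8, Psmb9 and Psmb10, and the trimming peptidase Erap1. They were chosen by name for their role, with earlier results of these data known. The arrays carried 14 probes for 9 of the 10 genes, out of 41174 probes and 18883 named genes in all. No probe was matched to H2-D1 by its accession, so that gene is not analysed here. Of the 9 genes 8 were lower in Snd1 knockdown cells than in vector cells, by 1.40-fold to 3.19-fold, and Tap1 did not pass the test. Differences were common in these arrays, where 25.6% of named genes were called lower and 26% higher.

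All cells were lines from FVB-strain mouse mammary tumours driven by polyoma middle T antigen (PyMT), and all received 50 uM camptothecin, a topoisomerase I poison, for 36 h. Snd1 knockdown cells (3 arrays) were a wild-type PyMT line, named WTA, with the lentiviral hairpin construct LKO1-shSnd1, and vector cells (3 arrays) were the same line with empty LKO1. W391D rescue cells (1 array) and wild-type rescue cells (1 array) were a PyMT line from Mtdh-knockout mice, named KO2, given back Mtdh with the W391D mutation, which is deficient in Snd1 binding, or normal Mtdh. Knockdown and vector cells were selected with puromycin and rescue cells were sorted for GFP. The labels name 1 hairpin, an empty vector in place of a control hairpin, and 1 line per genotype. Sample RNA in Cy5 was hybridised against a Cy3-labelled reference RNA mixed from 11 mouse cell lines, so each level below is a log2 ratio of sample to reference on 1 array.

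As background, proteasomes cut cytosolic proteins into peptides, and interferon replaces the constitutive catalytic subunits with Psmb8, Psmb9 and Psmb10 to form the immunoproteasome. Tap1 and Tap2 together pump the peptides into the endoplasmic reticulum, where Erap1 trims them and Tapbp helps to load them onto a heavy chain bound to B2m. The loaded complex at the cell surface is what CD8 T cells read, and tumour cells can lose it through low expression of these genes.

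Median Cy5 signals per array were 158 to 363 over backgrounds of 61 to 72, and no spot was saturated. All 14 probes were well above background in Cy5 on all 8 arrays. Knockdown and vector replicates 1 shared a slide (slide 1) and the other 4 arrays of that line shared slide 2, while the rescue arrays came from 2 further slides. Snd1 was lower with the hairpin (log2 ratios of -3.23, -3.33 and -3.44) than with empty vector (-2.49, -2.40 and -2.43), a log2 fold change of -0.90 ± 0.06 (SE, adjusted p = 8.66e-06, limma). The epithelial markers Krt8, Krt18, Epcam and Cdh1 were all well above background, and none of the 10 epithelial markers looked at was dim. That does not set epithelial cells apart. On all 6 knockdown and vector arrays 9 of 9 fibroblast and 12 of 13 leukocyte markers were well above background too. The labels do not say whether replicates were separate cultures, so the p-values reflect array-to-array spread that could be purely technical.

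Whether antigen processing genes differ when Snd1 is depleted under camptothecin was read from knockdown against vector, with limma fitted over all 33562 probes that passed the filter and Benjamini-Hochberg adjustment over all of them. A probe was called at an adjusted p under 0.05. Differences were widespread, since 22.1% of all tested probes were called lower and 23.6% higher. Of the 14 member probes 13 were called lower and none higher, and on the same 13 every knockdown array lay below every vector array, as on 25.5% of all probes. Counting each gene by its brightest probe, 8 of 9 members were lower, against 25.6% of 17223 named genes, and none was higher, against 26%. Psmb8 and Psmb10 were lower by at least 2-fold, which 1.99% of named genes were. For those 8 genes every knockdown array lay below every vector array, which held for 29.2% of named genes. The members' median log2 fold change was -0.84, against 0.01 over named genes. These are bulk samples, so fewer cells with a transcript and less transcript per cell cannot be told apart.

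**Figure D1:**
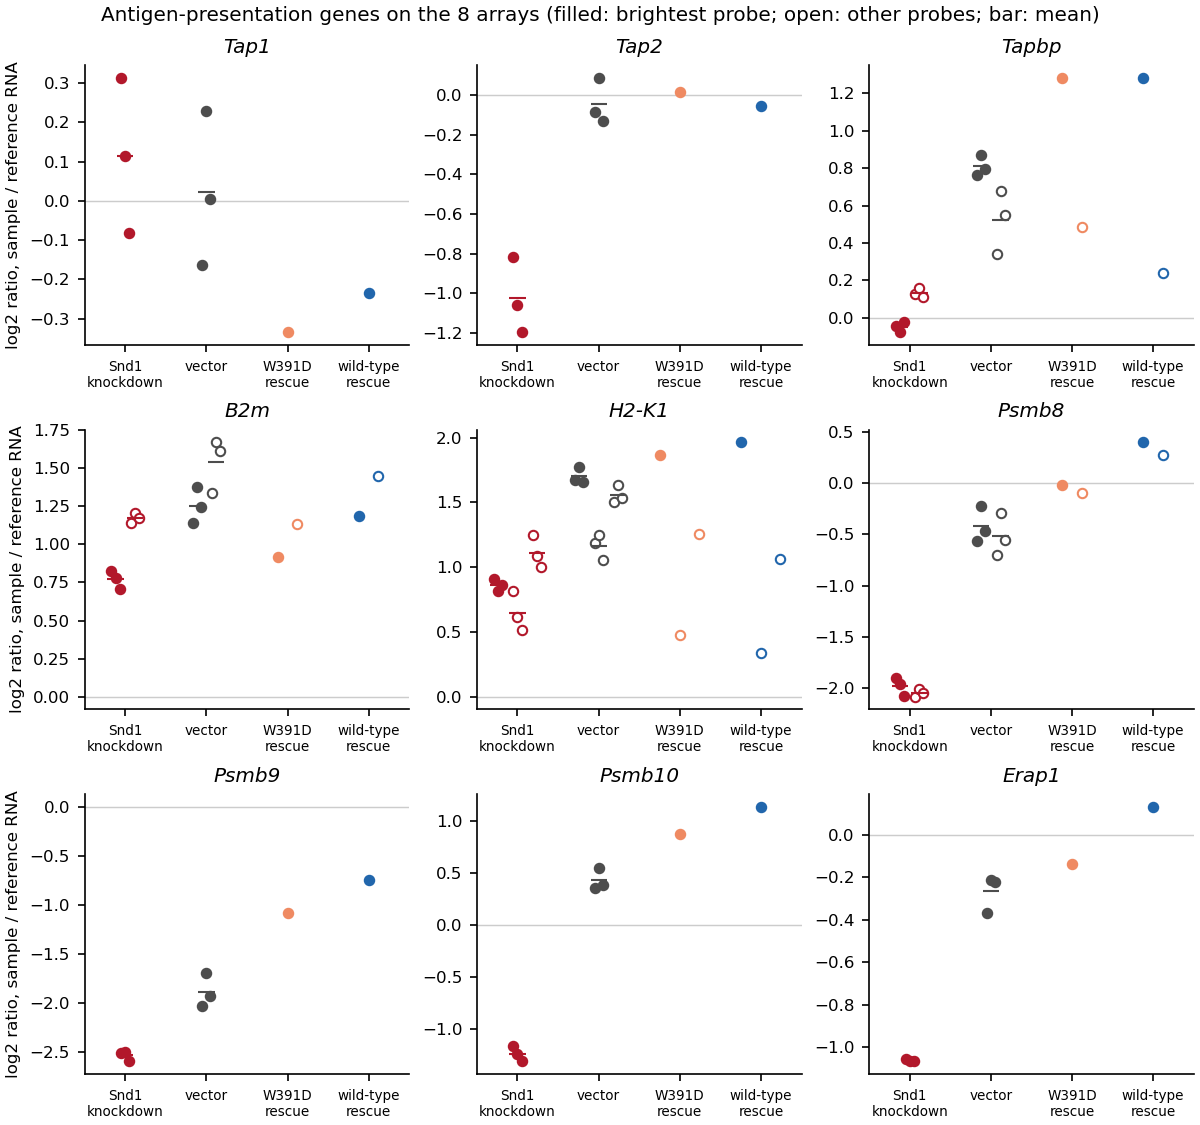
Log2 ratio of sample to reference RNA (vertical axis) on each of the 8 arrays by group for the 9 measured genes, where filled points are the brightest probe, open points are other probes and bars are means over 3 arrays. Probe by probe, knockdown points lie below vector points for every gene except Tap1, while different probes of B2m and of H2-K1 overlap each other.

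The immunoproteasome subunits Psmb10 and Psmb8 had the largest decreases of the members, and that of Psmb9 was smaller than those of Tap2, Tapbp, H2-K1 and Erap1. Psmb10 (MECL-1), which takes the place of the constitutive subunit Psmb7, had log2 ratios of -1.17, -1.25 and -1.31 in knockdown and 0.35, 0.55 and 0.39 in vector. The knockdown values were all negative and the vector values all positive, a 3.19-fold decrease (-1.67 ± 0.07 on the log2 scale with its SE, 3 arrays a group, adjusted p = 4.32e-07, limma). The rescue arrays stood higher still, at 0.88 with W391D and 1.14 with wild-type Mtdh.

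Psmb8 (LMP7), the immune counterpart of Psmb5, had log2 ratios of -1.90, -1.96 and -2.08 in knockdown and -0.56, -0.23 and -0.47 in vector by its brighter probe A_51_P345366. Its other probe, A_51_P345367, read -2.09, -2.01 and -2.05 in knockdown and -0.70, -0.29 and -0.56 in vector. The probes gave nearly the same decrease, 2.96-fold (-1.56 ± 0.09, adjusted p = 2.95e-06, limma) and 2.89-fold (-1.53 ± 0.10, adjusted p = 4.72e-06). On both, the gap between groups was far wider than the spread within them. The rescue arrays read -0.01 (W391D) and 0.40 (wild-type) by the brighter probe.

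Psmb9 (LMP2), the immune counterpart of Psmb6, had log2 ratios of -2.50, -2.50 and -2.59 in knockdown and -2.03, -1.69 and -1.93 in vector. The groups did not overlap and the decrease was 1.57-fold (-0.65 ± 0.08, adjusted p = 2.99e-04, limma). Vector arrays were themselves well below the reference RNA for Psmb9, and the rescue arrays stood at -1.08 (W391D) and -0.75 (wild-type).

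None of the constitutive subunits that these replace was called lower. Psmb5 was slightly higher in knockdown (0.18 ± 0.04, adjusted p = 0.00782, limma), and Psmb6 (0.01 ± 0.05, adjusted p = 0.912) and Psmb7 (-0.07 ± 0.05, adjusted p = 0.339) did not pass the test. The difference in response between paired immune and constitutive subunits was not itself tested. Psme1 and Psme2, which form the interferon-inducible PA28 cap that opens the proteasome, were 2.10-fold (-1.07 ± 0.06, adjusted p = 3.35e-06) and 2.33-fold lower (-1.22 ± 0.07, adjusted p = 2.30e-06). Psme3, the nuclear PA28 gamma subunit, was higher (0.31 ± 0.05, adjusted p = 6.07e-04), and the assembly factor Pomp stood at 0.04 ± 0.04 (adjusted p = 0.485).

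The transporter subunits differed from each other. Tap2 had log2 ratios of -0.82, -1.06 and -1.20 in knockdown and -0.09, 0.09 and -0.13 in vector, a 1.97-fold decrease (-0.98 ± 0.10, adjusted p = 7.46e-05, limma) with no overlap. Tap1 had 0.31, 0.11 and -0.08 in knockdown and -0.16, 0.23 and 0.0035 in vector. Its groups overlapped, and the log2 fold change was 0.09 ± 0.12 (95% confidence interval -0.19 to 0.37, adjusted p = 0.587). That interval does not reach the decrease fitted for any other member, though the difference between Tap1 and another gene was not tested. The sign for Tap1 turned between slides, 0.48 on slide 1 and -0.10 on slide 2. Tap1 rests on 1 probe with Cy5 signals of 414 to 498 in knockdown and 325 to 641 in vector, and Cy3 signals of 174 to 226 and 171 to 224 on the same arrays.

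On chromosome 17 the genes Psmb9, Tap1, Psmb8 and Tap2 follow each other in that order with no other protein-coding gene listed between them in the RefSeq table of GRCm38.p6. Psmb9 and Tap1 are read in opposite directions from one short stretch: their promoter windows (250 bases before to 50 after the annotated start) share 275 bases. The Tap1 window is shown because its neighbours on both sides were called lower and Tap1 was not. Here and in the windows further on, RefSeq's C57BL/6J sequence is given along the gene's strand and capitals mark matches to 4 motifs, searched on both strands: the interferon-stimulated response element (ISRE, GAAA, any 2 bases, GAAA), the gamma-activated site (GAS, TTCNNNGAA), the NF-kB consensus and the CCAAT box.

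Tap1 promoter, chr17:34187306-34187605: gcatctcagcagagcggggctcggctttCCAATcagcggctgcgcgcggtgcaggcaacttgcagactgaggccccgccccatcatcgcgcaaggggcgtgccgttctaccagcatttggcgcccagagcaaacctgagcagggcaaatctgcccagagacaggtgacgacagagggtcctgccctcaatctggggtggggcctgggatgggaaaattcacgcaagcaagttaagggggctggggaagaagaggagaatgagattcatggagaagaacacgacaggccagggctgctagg

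The only match in the Tap1 window is a CCAAT box at positions -222 to -218 from the start, and the Psmb9 window holds the same letters on its other strand. No ISRE, GAS or NF-kB letters were found there. Of all 32851 windows in the table, 3.44% held the ISRE letters, 8.3% the GAS letters, 4.51% the NF-kB consensus and 37.4% a CCAAT box. A match is a description of letters, not of binding. Only these exact patterns were searched, so a window without a match may still hold a site with a changed letter. Tap2 has no entry in the promoter table.

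Tapbp, which bridges the transporter and the empty heavy chain, had log2 ratios of -0.044, -0.077 and -0.024 in knockdown and 0.76, 0.87 and 0.80 in vector by its brighter probe, A_51_P304500. That was a 1.81-fold decrease (-0.86 ± 0.05, adjusted p = 2.52e-06, limma). The other probe, A_52_P684830, is annotated to another Tapbp transcript and read 0.13, 0.16 and 0.11 in knockdown and 0.34, 0.68 and 0.55 in vector. It gave a smaller decrease (-0.39 ± 0.08, adjusted p = 0.00434), again with no overlap. Tapbpl (TAPBPR), a tapasin-related peptide editor, was 2.04-fold lower (-1.03 ± 0.07, adjusted p = 5.36e-06).

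Erap1, the aminopeptidase of the endoplasmic reticulum that trims peptides to class I length, had log2 ratios of -1.06, -1.07 and -1.06 in knockdown and -0.37, -0.21 and -0.22 in vector. The knockdown arrays were nearly identical, the groups did not overlap and the decrease was 1.74-fold (-0.80 ± 0.05, adjusted p = 7.15e-06, limma). The rescue arrays read -0.13 (W391D) and 0.13 (wild-type). Its promoter window is shown because it is 1 of only 2 member windows with the exact ISRE letters, which here span the annotated start.

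Erap1 promoter, chr13:74639603-74639902: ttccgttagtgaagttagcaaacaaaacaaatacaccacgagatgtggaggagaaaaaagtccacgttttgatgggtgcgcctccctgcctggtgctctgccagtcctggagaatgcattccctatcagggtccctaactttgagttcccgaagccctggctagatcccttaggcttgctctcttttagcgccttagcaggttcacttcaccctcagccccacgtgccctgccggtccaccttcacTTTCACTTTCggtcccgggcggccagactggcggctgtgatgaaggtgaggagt

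B2m, the light chain shared by all classical class I molecules, had log2 ratios of 0.83, 0.78 and 0.71 in knockdown and 1.14, 1.38 and 1.24 in vector by probe A_51_P129012. The decrease was 1.40-fold (-0.48 ± 0.07, adjusted p = 4.49e-04, limma). Probe A_51_P129006, printed on 10 spots of each array, read 1.14, 1.21 and 1.17 in knockdown and 1.34, 1.67 and 1.61 in vector (-0.36 ± 0.08, adjusted p = 0.00710). The groups did not overlap on either probe. The SD between spots of 1 array was 0.027 to 0.093, which covers spot error only.

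H2-K1, a classical heavy chain, had log2 ratios of 0.91, 0.82 and 0.86 in knockdown and 1.67, 1.77 and 1.66 in vector by its brightest probe A_51_P198434, which was also printed on 10 spots (SD between spots 0.038 to 0.13). The decrease was 1.79-fold (-0.84 ± 0.05, adjusted p = 4.10e-06, limma). The Cy5 channel alone, without the reference, gave -0.54 and an adjusted p = 0.0713, so the call rests on the ratio. The other H2-K1 probes read lower too, A_52_P474242 by -0.51 ± 0.08 (adjusted p = 0.00122) and A_52_P50496 by -0.44 ± 0.07 (adjusted p = 9.49e-04). Class I heavy chains are near-identical copies and vary between mouse strains, so a probe may read several of them. Probe sequences were not used here.

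The B2m and H2-K1 windows are shown because they carry both NF-kB letters and an inverted CCAAT box, elements known from class I promoters. The exact ISRE letters were matched in B2m as well. An ISRE in H2-K1 with a changed letter would not be marked.

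B2m promoter, chr2:122147437-122147736: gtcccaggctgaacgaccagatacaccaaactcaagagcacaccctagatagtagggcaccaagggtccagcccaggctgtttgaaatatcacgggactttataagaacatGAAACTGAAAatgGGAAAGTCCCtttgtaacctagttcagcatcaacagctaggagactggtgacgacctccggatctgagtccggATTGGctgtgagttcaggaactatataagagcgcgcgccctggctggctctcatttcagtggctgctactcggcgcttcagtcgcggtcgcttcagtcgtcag

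H2-K1 promoter, chr17:34000298-34000597: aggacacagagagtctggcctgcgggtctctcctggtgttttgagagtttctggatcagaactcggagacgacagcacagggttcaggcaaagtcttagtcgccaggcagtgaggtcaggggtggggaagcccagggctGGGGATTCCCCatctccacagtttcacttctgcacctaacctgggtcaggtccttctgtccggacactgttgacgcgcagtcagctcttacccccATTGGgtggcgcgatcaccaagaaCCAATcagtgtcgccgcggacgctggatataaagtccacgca

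In B2m the ISRE letters lie at positions -139 to -130 and the NF-kB letters at -126 to -117 from the start. In H2-K1 the first capitals hold 2 overlapping NF-kB matches, which the H2-D1 window also has. Among 9 members with a window, 2 had ISRE letters, 3 the NF-kB consensus, 1 (Psmb8) a GAS and 6 a CCAAT box. Psmb10, with the largest decrease, had none of the 4.

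**Figure D2:**
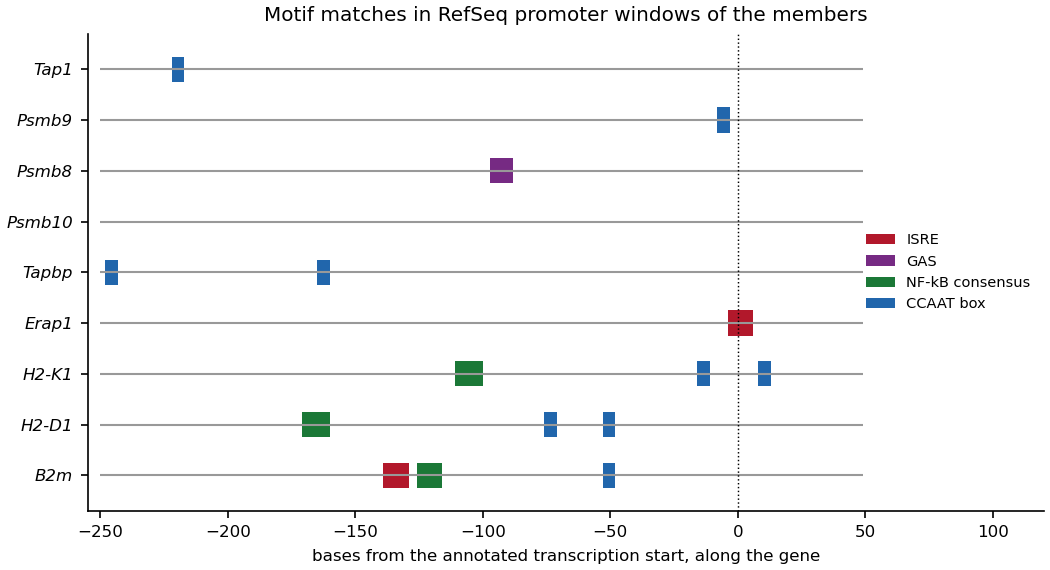
Positions of 4 motifs in the promoter windows of 9 members, with distance from the annotated start in bases on the horizontal axis, 1 row per gene and 1 colour per motif. The exact ISRE letters appear in the B2m and Erap1 rows only, and the Psmb10 row is empty.

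Each of the 8 called members was lower on both slides, which had to be so because its groups did not overlap. The split by slide is therefore no further check of direction. The members' median difference was -0.73 on slide 1 and -0.88 on slide 2. For all 14 probes the difference was more negative on slide 2, against 52.1% of all tested probes.

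**Figure D3:**
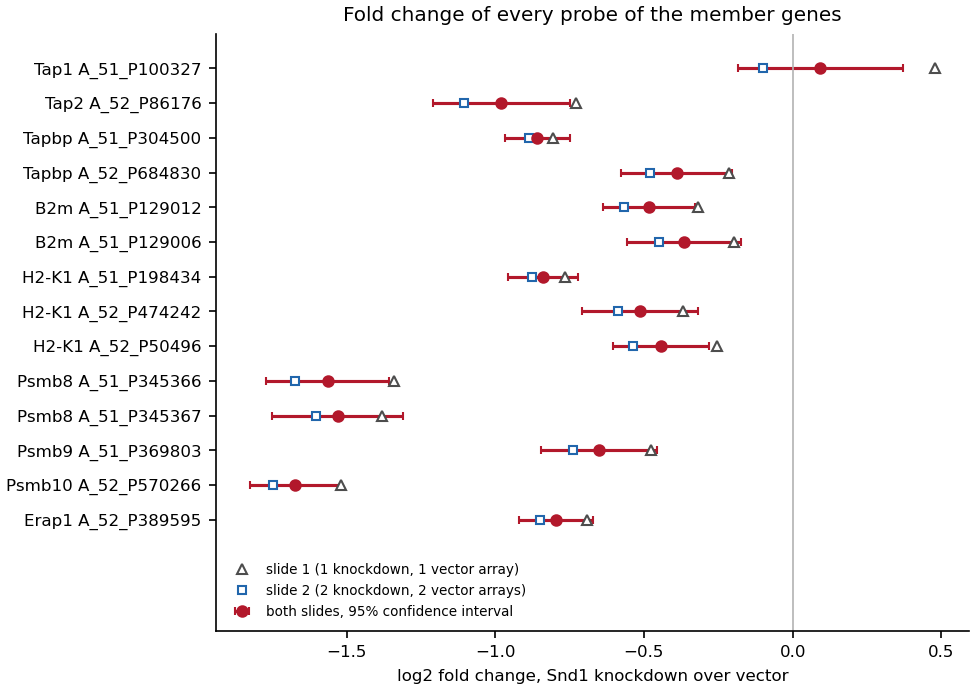
Log2 fold change of knockdown over vector (horizontal axis) for each of the 14 member probes, with circles and 95% confidence intervals for both slides together, triangles for slide 1 and squares for slide 2. Tap1 alone has an interval that crosses 0, and Psmb8 and Psmb10 lie beyond -1.

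Other genes of the pathway were examined by lists. Of 16 measured class I and class I-like genes besides the members 12 were lower, against 25.6% of named genes, and 2 higher, against 26% (median -0.39, against 0.01 over named genes). H2-T22 (-0.89 ± 0.05, adjusted p = 1.91e-06), the MAIT cell ligand Mr1 (-0.52 ± 0.04, adjusted p = 2.55e-05) and H2-K2 (-0.50 ± 0.05, adjusted p = 5.60e-05) were lower. H2-Q1 (0.66 ± 0.08, adjusted p = 2.38e-04) and Fcgrt, the neonatal Fc receptor (0.65 ± 0.06, adjusted p = 5.08e-05), were higher. H2-M3, H2-Q2 and H2-Q10, counted among the 12 by their brightest probes, also have probes that were not called. The H2 probes share the limit on near-identical copies.

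Of 6 measured partners of peptide loading and glycoprotein folding in the endoplasmic reticulum, Tapbpl among them, 4 were lower and 2 higher, against 25.6% and 26% of named genes. The calcium-binding chaperone Calr rose (0.73 ± 0.05, adjusted p = 1.13e-05), as did Hspa5 (0.84 ± 0.05, adjusted p = 3.46e-06), the main chaperone of the endoplasmic reticulum. Besides Tapbpl, Uggt1, which checks glycoprotein folding, fell (-0.59 ± 0.06, adjusted p = 6.07e-05), though its other probe gave -0.13 (adjusted p = 0.317). Canx (calnexin) was lower by its brightest probe (-0.39 ± 0.06, adjusted p = 0.00118) and higher by another (0.64 ± 0.04, adjusted p = 8.37e-06), so its direction is not settled.

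Peptidases outside the endoplasmic reticulum had 5 of 7 genes higher and 1 lower (median 0.29), where 26% of named genes were higher and 25.6% lower. Lnpep (IRAP), a relative of Erap1 in endosomes, rose (0.82 ± 0.06, adjusted p = 1.36e-05), as did the cytosolic leucine aminopeptidase Lap3 (0.39 ± 0.05, adjusted p = 2.20e-04) and Npepps (0.42 ± 0.06, adjusted p = 7.92e-04). Thop1, which degrades peptides in the cytosol, fell (-0.65 ± 0.05, adjusted p = 1.81e-05). Tpp2, counted among the 5, has a second probe that was called lower (-0.35, against 0.29), so its direction is not settled.

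Of 19 measured regulators of interferon signalling and class I transcription, 11 were lower, against 25.6% of named genes, and 4 higher, against 26% (median -0.21). Of the 4, Rfxap, a subunit of the RFX factor that binds MHC promoters, was higher by its brightest probe (0.43 ± 0.05, adjusted p = 9.21e-05) and lower by the other (-0.20 ± 0.06, adjusted p = 0.0348), so its direction is not settled. Irf9 (-1.04 ± 0.06, adjusted p = 3.03e-06) and Stat2 (-0.95 ± 0.08, adjusted p = 2.74e-05), partners in the interferon-activated ISGF3 complex, were lower. Irf1, which binds ISRE-type sites of class I genes, was 1.63-fold lower (-0.70 ± 0.06, adjusted p = 3.98e-05), and the interferon-gamma receptor chain Ifngr1 fell (-0.51 ± 0.04, adjusted p = 2.19e-05). Socs1, a feedback inhibitor of this signalling, rose (0.89 ± 0.05, adjusted p = 4.05e-06), and the other receptor chain Ifngr2 rose too (0.50 ± 0.05, adjusted p = 3.97e-05). Nlrc5, the transactivator of class I genes, stood at -0.04 ± 0.05 (adjusted p = 0.521) and was well above background on all 6 arrays.

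Among 6 measured class II genes 2 were lower and 3 higher (median 0.09), against 25.6% and 26% of named genes. H2-DMb1, the protein-coding neighbour of Psmb9 on the side away from Tap1, was 2.68-fold lower by its brightest probe (-1.42 ± 0.06, adjusted p = 9.15e-07, limma). Its other probe gave a smaller decrease (-0.59 ± 0.06, adjusted p = 1.01e-04). The partner chain H2-DMa was 1.64-fold higher (0.71 ± 0.05, adjusted p = 7.14e-06).

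**Figure D4:**
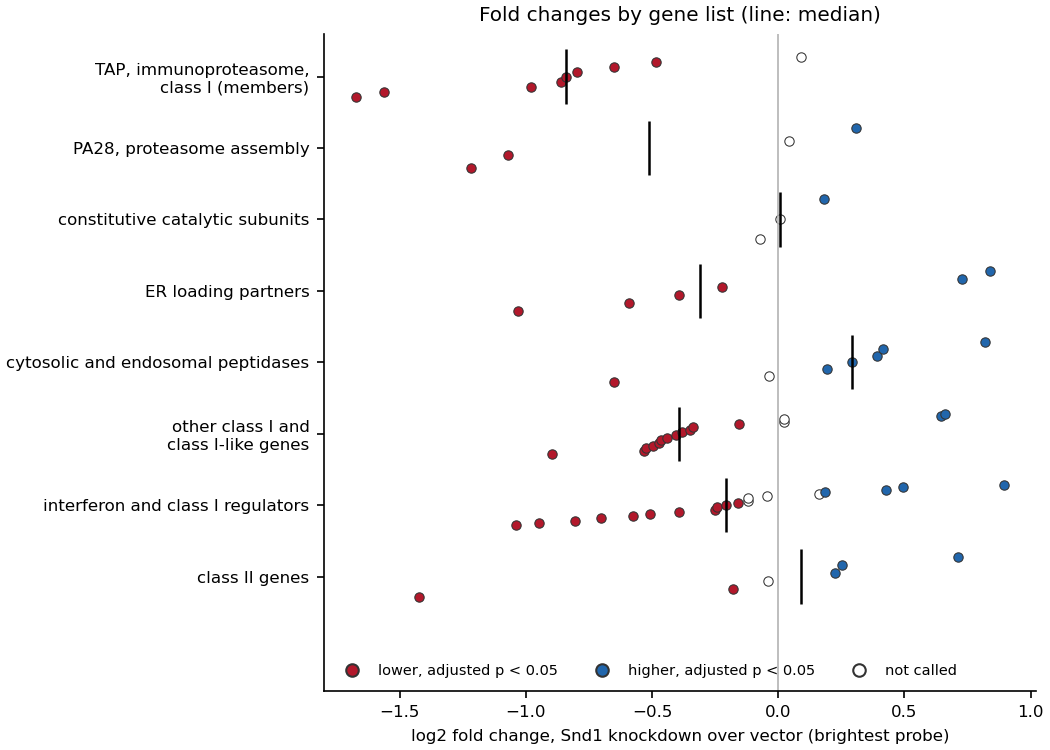
Log2 fold change of knockdown over vector (horizontal axis) for each tested gene by list, where red points are called lower, blue points higher, open points are not called and black lines are list medians. The members' median is -0.84, and the lists of peptidases and class II genes have medians above 0.

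Markers of cell identity were read in the same arrays, where 25.6% of named genes were called lower and 26% higher. Of 10 mammary epithelial markers 7 were lower and 2 higher, with a summed normalised Cy5 signal of 388043 to 408331 in knockdown and 547422 to 564685 in vector. Elf5 fell 4.07-fold and Krt14 2.22-fold. Of 9 fibroblast markers 6 were higher and none lower, with sums of 21749 to 24635 in knockdown and 9537 to 10593 in vector. Postn rose 6.60-fold, Pdgfrb 5.43-fold and Col1a1 5.24-fold by their brightest probes, each a larger change than that of any member. The other Col1a1 probes gave smaller log2 increases, 0.72 and 0.20. Of 12 tested leukocyte markers 2 were lower and 1 higher, with sums of 8787 to 9248 in knockdown and 10147 to 11429 in vector, and the pan-leukocyte gene Ptprc had mean log2 ratios of -5.94 in knockdown and -6.11 in vector. Of 4 tested endothelial markers 2 were lower and 1 higher, with sums of 1659 to 1779 in knockdown and 1611 to 1698 in vector, and Tek was not well above background on any of the 6 arrays. The part of these marker differences in the members' decreases was not tested.

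The pattern of each gene over all 8 arrays was then set against Tap1 by Pearson correlation, as a description over 8 arrays from 2 lines that share a reference RNA. No other member was among the genes most like it. The 5 closest of 15961 named genes were Ido1 (r = 0.967), Olfr615 (r = 0.955), G6pd2 (r = 0.940), Cdh16 (r = 0.927) and Clrn1 (r = 0.926). None of the 5 was called in knockdown against vector, and Olfr615 ran only from -0.038 to 0.16 over the arrays. What this likeness reflects was not tested. Among members r with Tap1 ran from -0.63 for Tapbp to -0.01 for B2m.

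The rescue arrays addressed whether the same genes differ when Mtdh binds Snd1 poorly. With 1 array each there is no replicate check and no test. Each array was on its own slide, so a slide difference cannot be told from a difference between Mtdh forms. Mtdh itself read lower with W391D, by -0.52 on its brighter probe and -0.18 on the other. The amount of Mtdh RNA therefore cannot be told from the mutation either. Immunoproteasome subunits read lower with W391D than with wild-type Mtdh: Psmb8 by -0.41 and -0.37 on its 2 probes, Psmb9 by -0.34 and Psmb10 by -0.26. In the Cy5 channel alone Psmb8 differed by -0.19 and Psmb9 by -0.56. Erap1 differed by -0.27 and B2m by -0.27 and -0.31. These 5 genes lay below the 5th percentile of named genes (-0.22), which 5% of named genes do by construction. None was lower by 0.5 or more, as 0.238% of named genes and 0.244% of probes were. By the brightest probe 8 of 9 members were below 0, against 50.8% of named genes, though Tapbp was so only in the fifth decimal. The members' median was -0.26, against -0.0023 over named genes.

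The other 4 genes lay between the 5th and 95th percentile by their brightest probe. Tap1 differed by -0.10, Tap2 by 0.07 and H2-K1 by -0.10 with W391D, while the other H2-K1 probes gave 0.14 and 0.20. Tapbp read 1.28 on both rescue arrays by its brighter probe, and its other probe gave 0.25. For Psmb9 the difference was close to the range of the 3 vector arrays (-2.03 to -1.69). By the brightest probe it was wider than that range for Psmb8 (-0.56 to -0.23), Psmb10 (0.35 to 0.55), Erap1 (-0.37 to -0.21) and B2m (1.14 to 1.38). By the other probes of Psmb8 (-0.70 to -0.29) and B2m (1.34 to 1.67) it was not wider. Mtdh itself read -0.10 in the W391D array and 0.42 in the wild-type array by its brighter probe, and its other probe gave a difference of -0.18.

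**Figure D5:**
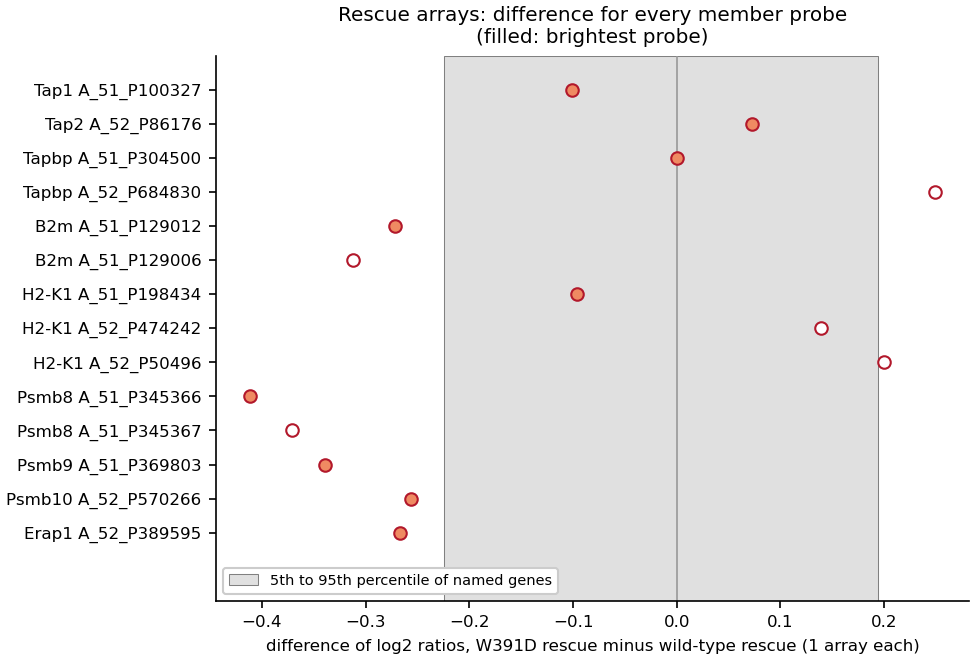
Difference of log2 ratios, W391D rescue minus wild-type rescue (horizontal axis, 1 array each), for each of the 14 member probes, with the brightest probe of a gene filled and the 5th to 95th percentile of named genes (-0.22 to 0.19) shaded. Both probes of Psmb8 and of B2m, and those of Psmb9, Psmb10 and Erap1, lie left of the shaded range.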

How the data were processed

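Each of the 8 samples was hybridised in Cy5 with the Cy3 reference to a 2-colour Agilent array, with no dye swap, per the labels. The deposited intensities are median pixel signals of spots and local background, not normalized, extracted with Agilent Feature Extraction 11.0.1.1 per the file headers (9.5.3.1 per the submitters' processing notes). The scanner files' deposited log10 ratios (Cy5 over Cy3) were already background-subtracted and dye-normalized by Feature Extraction, per the file headers. A further table of the series contains deposited log2 ratios, which matched each array's own log10 ratios after conversion (r = 0.988 to 1, slope 1 to 1.001, at most r = 0.953 with another array). Its column medians were 0.026 to 0.146, so it was not centred. The flags for dim, saturated and outlier spots are other deposited values.

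With limma 3.58.1 (R 4.3.3), normexp with an offset of 50 corrected the background and loess normalized the log2 ratios within arrays. Control spots (1639) and outlier spots (77 to 142 per array) had weight 0. Spots of a probe were averaged. Unversioned accessions named 27668 probes through RefSeq's GRCm38.p6 table, which is later than the mm9 build in the headers. The fit took probes whose Cy5 signal was well above background on 3 or more of 6 arrays, tested with lmFit and eBayes. Every probe was a feature, and a gene was counted by its brightest probe. The fit was tested on simulated data.

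The main fit had no block, since the labels state none, and the replicate numbers paired the arrays only in an alternative. Arrays with the same number deviated together (r = 0.570, 0.308 and 0.312), but so did differently numbered arrays of 1 slide (0.369 and 0.216). Arrays of different slides did not (-0.480 to -0.350), so the numbers cannot be told from the slide. Deviations from a group mean cancel, so part of these negative values is built in. Named were all members, Snd1 and Mtdh, up to 4 called genes of each list with the smallest p, others where a count or probe conflict needed them, and the 5 genes most like Tap1. Irf1, Ifngr2, Nlrc5, Ptprc, Tek and 4 epithelial markers were named after their values were seen. Members and lists were chosen with earlier results of these data known. Alternatives changed the background correction, normalization, filter, probe rule, blocks, weights and threshold, or left out an array.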

Additional observations from a re-analysis of the deposited data

How the results depend on the processing

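Over 22 alternatives 7 to 8 member genes were lower in knockdown and none higher, and the median log2 fold change ran from -0.96 to -0.65. The lowest count came from the Cy5 channel alone, where H2-K1 (-0.54, adjusted p = 0.0713) lost its call. There 10 genes of the 7 other antigen-presentation lists were higher, against 18 by the ratio. Over all probes the number called higher fell as well, from 7918 by the ratio to 4926. The cause was not tested. The median of -0.65 came from averaging a gene's probes, which brings in the weaker probes of Tapbp, B2m and H2-K1. Tap1 turned sign within the second slide (-0.10), and without single arrays it ran from -0.0070 to 0.20, with -0.0070 without knockdown replicate 1 and -0.0013 without vector replicate 1. Without single arrays 8 members were lower each time and the median ran from -0.86 to -0.80. With the replicate block, which pairs arrays of the same number, 8 members were lower (median -0.84), and no other call changed among the members. Rescue medians ran from -0.34 to -0.19 over 6 alternatives. In the Cy5 channel alone the rescue differences of Psmb8 (-0.19), Psmb9 (-0.56) and B2m (-0.40) moved, that of Tap2 (-0.094) turned sign, as it did under median centring (-0.015), and those of Tap1 (0.012) and Tapbp (0.070) were above 0. That of Tapbp was also above 0 without background correction (0.00090) and with either set of deposited log ratios (0.014). The count of members below 0 therefore depends on the processing. Rescue arrays without replicates, 1 probe for 5 of the genes and near-identical heavy chains limit precision.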
